A study of Mus musculus with 11 samples.

Results

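The 85 genes described here are the protein-coding genes of the deposited table whose names mark them as zinc finger proteins, namely Zfp followed by a number, Zkscan, Zscan, Zbtb, Zik, Zim, Rsl or Rex2. They are 85 of 4461 genes in the table. By name, 67 are Zfp genes, 9 Zbtb, 8 Zscan and 1 Zkscan, and no Zik, Zim, Rsl or Rex2 gene was listed. GENCODE M21 annotates 472 mouse coding genes with such names, and those outside the table were not analysed here. RNA-Seq had been performed on cell lines derived from mammary tumors of female FVB/N NIC mice, in which the MMTV promoter drives activated ErbB2 (the NDL allele) and Cre recombinase from 1 transcript, so that both are confined to cells in which this promoter is active. The 4 NIC/Cpt1aL/L lines (KO_1922, KO_1925, KO_2768 and KO_4258) carried conditional alleles of Cpt1a, which transfers fatty acids into mitochondria for oxidation, and the 2 NIC/Cpt1a+/+ lines (WT_5257 and WT_8905) carried wild-type alleles. Tumors had been taken 8 weeks after palpation. Cpt1a itself was not analysed here. All lines share the oncogene and Cre, and each line is 1 culture of tumor cells, so that a difference between lines cannot be separated from a difference between tumors. The genotypes follow the genotype field of the labels, as the titles word the allele status the other way around.

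A zinc finger is a short fold held together by a zinc ion, and in the C2H2 type a pair of cysteines and a pair of histidines hold it. Arrays of such fingers read DNA sequence, and the proteins carrying them form the largest group of transcription factors in mammals. Many carry a further domain: KRAB recruits the corepressor Trim28 and, through it, Setdb1 and histone H3 lysine methylation, BTB binds corepressors and the ubiquitin ligase scaffold Cul3, and SCAN pairs such proteins with each other. KRAB zinc finger genes lie in clusters of related copies and many silence transposable elements in embryonic cells.

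Coding sequences in GENCODE M21 were searched in frame for codons spelling the spacing of a C2H2 finger and the core of a KRAB domain. At least 1 finger pattern was found in 79 of the 85 genes and 3 or more in 72, with a median of 9 in genes that had any and a maximum of 33 in Zfp619. No pattern was found in Zfp36, Zfp185, Zfp365, Zfp750, Zfp839 and Zbtb8os. Zfp36 (tristetraprolin) is an RNA-binding protein of the CCCH type that promotes decay of messages with AU-rich elements, and Zbtb8os is named only for lying opposite Zbtb8a and encodes archease, a cofactor of tRNA ligation. A KRAB pattern was found in 20 genes, against 148 of the 472 annotated genes with such names (31.4%).

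The depth of the libraries, recovered from the counts and FPKM, was 18247312 to 25386785 reads in the 7 NIC/Cpt1aL/L libraries and 15199378 to 17372643 in the 4 NIC/Cpt1a+/+ libraries, so that every NIC/Cpt1aL/L library was the deeper. Levels are given as CPM, that is, counts relative to the library total with TMM scaling, after summing the duplicate libraries of a line, and as the authors' FPKM where genes are compared with each other. Every gene of the table has an adjusted p-value of at most 0.049958 in the authors' own genotype comparison. The genes were thus chosen on the contrast and the libraries described here, and their genotype differences are given as a description. Markers of other cells were few in the table. Of 10 luminal markers only Elf5 was listed (17.6 to 143 CPM in the NIC/Cpt1aL/L lines and 298 to 316 in the NIC/Cpt1a+/+ lines), of 7 basal markers Krt17, Acta2 and Oxtr, and of 6 fibroblast markers Col1a2 and Dcn. The basal markers differed in direction. Krt17 was at 1.17 to 10.6 CPM against 0 to 0.0312, and Acta2 at 0.0460 to 3.88 against 0 to 0.0937. Oxtr was mostly lower, at 0.0460 to 6.51 CPM against 2.90 to 55.5. The summed level of Col1a2 and Dcn was 0 to 1374 CPM against 0 to 0.0624, and line KO_2768 stands apart with 35296 reads of Dcn, a matrix proteoglycan. None of the 3 endothelial, 5 leukocyte or 2 erythroid markers was listed. The part of these markers in the results was not tested.

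Most of the zinc finger genes were lower in the NIC/Cpt1aL/L lines. Of the 85 genes, 53 were lower and 32 higher, that is 37.6% higher, whereas 58.6% of the 4268 tested genes of the table were higher. In bulk libraries, fewer cells expressing a gene and less of its RNA per cell cannot be told apart. The median log2 difference (NIC/Cpt1aL/L minus NIC/Cpt1a+/+) was −0.53 over these genes and 0.49 over the table. In 53 genes all 4 NIC/Cpt1aL/L lines lay below both NIC/Cpt1a+/+ lines, in 20 they lay above, and in 12 the genotypes overlapped. Over the whole table these shares were 37.6% below and 35.3% above. With edgeR's quasi-likelihood test by line, which 84 of the 85 genes entered (Zscan4f had too few reads), 4 genes fell and 0 rose at a Benjamini-Hochberg adjusted p of 0.05, against 3.47% and 1.66% of all tested genes. At an unadjusted p of 0.05, 39 were lower and 7 higher (29.0% and 21.5% over the table), and DESeq2 on the same sums called 48 lower and 11 higher (33.0% and 22.2%). With each library taken as a separate sample, 52 were lower and 19 higher (42.6% and 47.5%), a count that treats duplicates of a line as independent. Adjustment over the 17561 tests implied by the authors' p-values left 0 calls, as did leaving out any of KO_1922, KO_1925 and WT_5257, so that the 4 calls rest on the number of tests counted and on each of these lines. Over 17561 tests, and without KO_1922 or KO_1925, 0 genes of the whole table were called either. Without KO_2768, the line with the Dcn reads, 4 zinc finger genes were called lower and 1 higher (203 and 90 in the whole table). Without KO_4258 the counts were 7 and 2 (347 and 294 in the whole table).

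**Figure D1:**
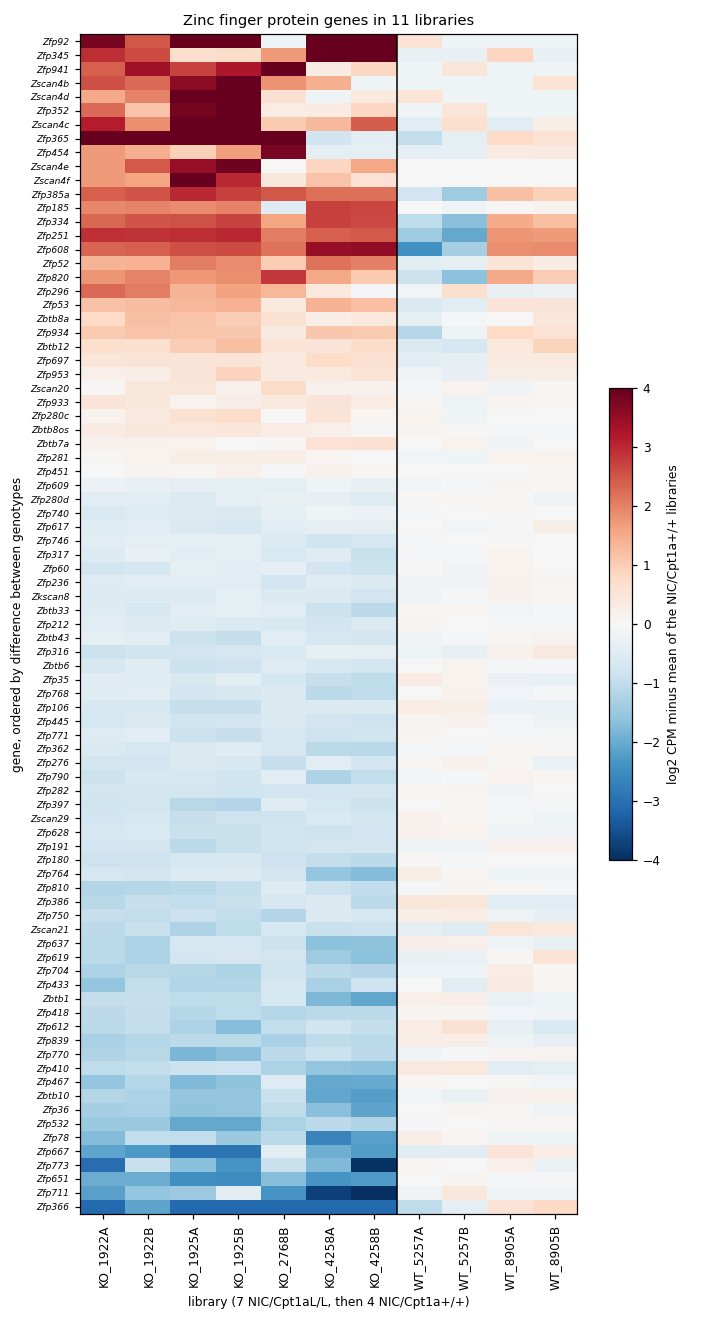
Each row is 1 of the 85 genes and each column 1 of the 11 libraries; color gives log2 CPM minus the mean of the NIC/Cpt1a+/+ libraries, limited to −4 and 4, and rows are ordered by the difference between genotypes. The 53 lower genes are mostly blue across the NIC/Cpt1aL/L columns, while most of the 10 genes nearly silent in the NIC/Cpt1a+/+ lines differ in depth of red from line to line.

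The 45 genes whose log2 difference was under 1 in size made up the larger part, 33 lower and 12 higher, with a median of −0.53. The 20 genes lower by more than 1 had a median of −1.20 and the 20 genes higher by more than 1 a median of 3.25. By the authors' FPKM averaged over lines, the genes ranged from 0.105 to 39.1 with a median of 4.87. There were 21 genes above 10 FPKM and 17 below 1. The lower genes were the better expressed, with a median of 6.28 FPKM against 1.90 in the higher genes.

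The 4 genes that fell by line were Zfp651, Zfp532, Zfp36 and Zfp704. Zfp651 (chromosome 9, 121760033 to 121771742, mm10), also known as Zbtb47, has 7 finger patterns. It stood at 42.7, 30.3, 52.5 and 34.0 CPM in KO_1922, KO_1925, KO_2768 and KO_4258, and at 175 and 154 CPM in WT_5257 and WT_8905. The mean was 39.9 ± 9.91 CPM (SD, n = 4 lines) against 164.8 ± 14.6 (SD, n = 2), and every NIC/Cpt1aL/L line was below both NIC/Cpt1a+/+ lines. Zfp651 fell by 2.05 on the log2 scale (SE 0.25, edgeR adjusted p = 0.029), with estimates from −2.28 to −1.93 when lines were left out in turn.

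Zfp532, a member of a chromatin-bound complex with related zinc finger proteins, stood at 52.4, 36.1, 62.2 and 68.1 CPM against 141 and 147 CPM. It fell by 1.39 on the log2 scale (SE 0.27, edgeR adjusted p = 0.048). Exons of other genes on the opposite strand cover 28.7% of its exon bases, and since the strand setting of the counting is not given in the sources used here, its reads cannot all be assigned. Zfp36, on chromosome 7 at 28376784 to 28379255, stood at 49.0, 41.3, 60.7 and 34.0 CPM against 125 and 115 CPM. It fell by 1.37 (SE 0.25, edgeR adjusted p = 0.047) and had the highest mean FPKM of all 85 genes, 26.2 ± 6.97 (SD, n = 4) against 64.7 ± 4.01 (SD, n = 2). Zfp704 stood at 29.3, 29.5, 38.1 and 31.0 CPM against 58.0 and 72.1 CPM, and fell by 1.02 (SE 0.20, edgeR adjusted p = 0.048). In all 4 genes the genotypes did not overlap. With library totals and no TMM scaling, the edgeR adjusted p of Zfp532, Zfp36 and Zfp704 was 0.053, 0.0536 and 0.0544, just outside the threshold.

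Among the other genes lower by more than 1 log2, 5 were poorly expressed or uneven. Zfp366 (DC-SCRIPT in human, described in dendritic cells) had 2 reads in all over the NIC/Cpt1aL/L libraries, both in KO_1922, and 56 reads over the NIC/Cpt1a+/+ libraries. Its pooled level was 62.6 times lower (exact 95% interval 16.6 to 530, for counting error only, as for all such ratios here). Zfp711, an X-linked gene whose human counterpart is mutated in intellectual disability, stood at 0.437, 0.966, 0.271 and 0.0230 CPM against 2.08 and 1.56. Zfp773 and Zfp78, both with a KRAB pattern, were at 0.207 to 0.775 CPM and 0.368 to 1.09 CPM against 1.44 to 1.52 and 2.03 to 2.68. Zfp667 was at 4.03, 2.43, 13.8 and 4.46 CPM against 13.9 and 24.2, so that KO_2768 lay next to WT_5257. The remaining genes of the group were Zbtb10, Zfp467, Zfp410, Zfp770, Zfp839, Zfp612, Zfp418, Zbtb1, Zfp433, Zfp619 and Zfp637, with log2 differences from −1.34 to −1.01. Zfp410, whose best known target is Chd4, was at 24.3 to 42.0 CPM against 53.3 to 97.0. Zfp637 had the highest FPKM after Zfp36 and Zfp740, at 23.5 ± 6.75 (SD, n = 4) against 45.1 ± 10.6 (SD, n = 2). Reads of Zfp433 are uncertain, since 86.7% of the 100-base windows of its transcripts recur in transcripts of other genes.

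The 33 genes lower by less than 1 log2 included 4 of the best expressed. Zfp740 was at 34.8 ± 3.20 FPKM (SD, n = 4) against 43.0 ± 0.232 (SD, n = 2), Zfp106, an RNA-binding protein, at 23.1 ± 2.28 against 34.8 ± 9.97, and Zfp445, a KRAB protein that maintains methylation at imprinted loci, at 16.1 ± 1.45 against 24.2 ± 3.88. For Zfp106, exons on the other strand cover 26.1% of its exon bases. Zfp771 was at 15.0 ± 2.20 FPKM against 22.6 ± 2.03. The lower genes with known roles also included Zbtb33 (Kaiso, which binds methylated CG sites) at 39.5 to 57.2 CPM against 68.1 to 78.8, Zfp746 (a substrate of parkin) at 29.4 to 38.4 CPM against 47.4 to 48.4, and Zfp750, a regulator of epidermal differentiation, at 11.8 to 17.3 CPM against 21.2 to 31.9. In all 53 lower genes the ranges of the genotypes were apart, and in 14 of them the unadjusted p of edgeR by line was above 0.05. The same separation was seen in 1678 of the 4461 genes of the table, where 2501 of the 4268 tested genes were higher. It is thus usual for lower genes of the table, which were chosen on the contrast.

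On the higher side, the largest differences were mostly in genes that were nearly silent in the NIC/Cpt1a+/+ lines. In 10 genes the 4 NIC/Cpt1a+/+ libraries held 3 reads or fewer in all: Zscan4b, Zscan4c, Zscan4d, Zscan4e, Zscan4f, Zfp352, Zfp345, Zfp454, Zfp941 and Zfp92. They could enter a table of differing genes only by being higher in the NIC/Cpt1aL/L lines. In 6 of them every NIC/Cpt1aL/L line was above both NIC/Cpt1a+/+ lines, and in 4 at least 1 NIC/Cpt1aL/L line was not. With so few control reads, 1 read can place a line above, as for Zscan4f and Zfp352 in KO_2768. None of the 10 genes passed edgeR's test by line, with adjusted p from 0.082 to 0.167 in the 9 genes tested.

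Zscan4 genes encode SCAN and zinc finger proteins of the 2-cell mouse embryo, and in embryonic stem cells they are expressed in bursts and act on telomeres. The 5 copies in the table lie in 502 kb of chromosome 7 (10900740 to 11402741, mm10), each with 4 finger patterns. Windows around the annotated start are shown for 3 of them, as they are near copies of each other. These are RefSeq promoters on GRCm38.p6, 250 bases before to 50 bases after the annotated start, with TATAAAAG in capitals, for Zscan4b at chr7:10905001-10905300 (minus strand), Zscan4c at chr7:11005495-11005794 (plus strand) and Zscan4d at chr7:11166099-11166398 (minus strand).
Zscan4b: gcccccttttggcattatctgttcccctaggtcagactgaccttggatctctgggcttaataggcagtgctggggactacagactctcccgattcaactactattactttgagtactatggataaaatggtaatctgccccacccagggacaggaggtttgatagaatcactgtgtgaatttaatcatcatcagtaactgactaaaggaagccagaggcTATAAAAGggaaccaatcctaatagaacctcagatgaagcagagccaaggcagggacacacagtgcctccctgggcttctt
Zscan4c: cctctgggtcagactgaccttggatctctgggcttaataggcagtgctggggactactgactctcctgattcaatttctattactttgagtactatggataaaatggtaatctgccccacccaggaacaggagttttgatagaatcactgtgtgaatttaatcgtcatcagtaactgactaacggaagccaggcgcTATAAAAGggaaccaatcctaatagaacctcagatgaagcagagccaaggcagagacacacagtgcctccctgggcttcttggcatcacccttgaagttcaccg
Zscan4d: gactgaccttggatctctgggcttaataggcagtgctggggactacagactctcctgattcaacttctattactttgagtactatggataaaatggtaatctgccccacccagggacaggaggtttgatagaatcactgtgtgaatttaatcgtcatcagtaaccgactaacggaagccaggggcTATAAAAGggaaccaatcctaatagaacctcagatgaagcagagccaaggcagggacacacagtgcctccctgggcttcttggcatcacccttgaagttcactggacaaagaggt
The windows of Zscan4b, Zscan4c, Zscan4d and Zscan4f match each other at 95.3% to 99.3% of aligned bases, and TATAAAAG begins at base 220, 197, 186 and 220 of them, the difference being the annotated start. On either strand, TATAAAAG occurs in promoters of 2.01% of 27025 genes and in 6 of the 66 zinc finger genes matched, the other 2 being Zbtb8os and Zfp317. Any annotated start of a gene was counted here, and for Zfp317 the motif lies outside the window used for the CG counts below.

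Summed over the 5 copies, Zscan4 reads numbered 53 and 37 in the libraries of KO_1922, 173 and 204 in KO_1925, 16 in KO_2768, and 16 and 19 in KO_4258. The NIC/Cpt1a+/+ libraries held 1 and 2 in WT_5257 and 0 and 2 in WT_8905. As a level this was 2.19, 9.84, 0.620 and 0.805 CPM in the NIC/Cpt1aL/L lines and 0.0947 and 0.0625 CPM in the NIC/Cpt1a+/+ lines. Every NIC/Cpt1aL/L library was above every NIC/Cpt1a+/+ library, and KO_1925 was the highest line, with its duplicates close together. The sum is safer than the single copies, because 72.8% to 89.5% of the 100-base windows of Zscan4b, Zscan4c, Zscan4e and Zscan4f and 29.6% of those of Zscan4d occur in other genes' transcripts. Some of these genes lie outside the 5 copies, such as Zscan4-ps2, which shares most with Zscan4f. Reads shared with them cannot be assigned. By copy, the pooled level over all NIC/Cpt1aL/L libraries was 28.5 times that of the NIC/Cpt1a+/+ libraries for Zscan4c (exact 95% interval 9.59 to 139), 44.3 times for Zscan4d (7.76 to 1765) and 44.7 times for Zscan4b (7.84 to 1783). Zscan4e and Zscan4f had 68 and 60 reads against 0, which is at least 10.1-fold and 8.94-fold higher than a floor of 3 counts over the NIC/Cpt1a+/+ group.

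Zfp352, a finger gene of chromosome 4 also expressed in the 2-cell embryo, followed a similar order of lines. It had 10 and 3 reads in KO_1922, 31 and 38 in KO_1925, 1 in KO_2768, 1 and 2 in KO_4258, and 1 read in all in the NIC/Cpt1a+/+ libraries. Its promoter window at chr4:90218570-90218869 (GRCm38.p6, plus strand) is shown because it holds only 2 CG dinucleotides, given in capitals.
Zfp352: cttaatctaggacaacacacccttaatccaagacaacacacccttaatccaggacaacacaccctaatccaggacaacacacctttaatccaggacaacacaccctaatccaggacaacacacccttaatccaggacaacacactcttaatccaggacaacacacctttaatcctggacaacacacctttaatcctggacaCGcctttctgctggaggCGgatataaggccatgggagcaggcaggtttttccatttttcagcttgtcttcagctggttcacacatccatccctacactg
A list of 23 other genes of the 2-cell embryo (the Usp17l, Tdpoz and Tcstv families, Dppa2, Dppa4 and others), written after the Zscan4 values were known, had 12 genes in the table. All 9 that were tested were higher in the NIC/Cpt1aL/L lines, 0 passed the test by line, and their median log2 difference was 4.45 against 0.49 over the table. The NIC/Cpt1a+/+ libraries held 65 reads of the 12 genes, 49 of them from Sp110. With so few reads, the others could hardly enter a table of differing genes except by being higher. Their shared direction and median are therefore a description. The summed level of the 12 genes was 9.74, 18.1, 8.72 and 8.39 CPM against 1.67 and 0.375 CPM. KO_1925 again stood highest. KO_2768 owed 7.17 CPM of its sum to Sp110 and KO_4258 5.52 CPM to Dppa2, and without Sp110, left out after its values were seen, the sums were 5.63, 13.9, 1.55 and 7.41 CPM against 0.221 and 0.281 CPM.

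The other 4 nearly silent genes differed in which line carried them. Zfp345, on chromosome 2 with 14 finger patterns, had 151 and 125 reads in KO_4258, 19 and 13 in KO_1922, 2 and 2 in KO_1925, 8 in KO_2768 and 2 in the NIC/Cpt1a+/+ libraries together. Zfp92, an X-linked gene with a KRAB pattern, had 229 and 134 reads in KO_4258, 54 and 36 in KO_1925, 33 and 11 in KO_1922, and 0 in KO_2768, against 1. Zfp941 and Zfp454, both with a KRAB pattern, were highest in KO_2768, with 66 and 45 reads, against 1 and 2 reads over the NIC/Cpt1a+/+ libraries. KO_4258, the highest line for Zfp345 and Zfp92, held 0 reads of Zfp454 and 3 of Zfp941. The pooled ratio was 71.5 for Zfp345 (exact 95% interval 19.6 to 593), 222 for Zfp92 (39.7 to 8792), 59.9 for Zfp941 (10.6 to 2383) and 14.8 for Zfp454 (3.92 to 124). These intervals, and the bounds given for Zscan4 genes, cover counting error only and not the differences between lines. No line was the highest for all of these genes.

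**Figure D2:**
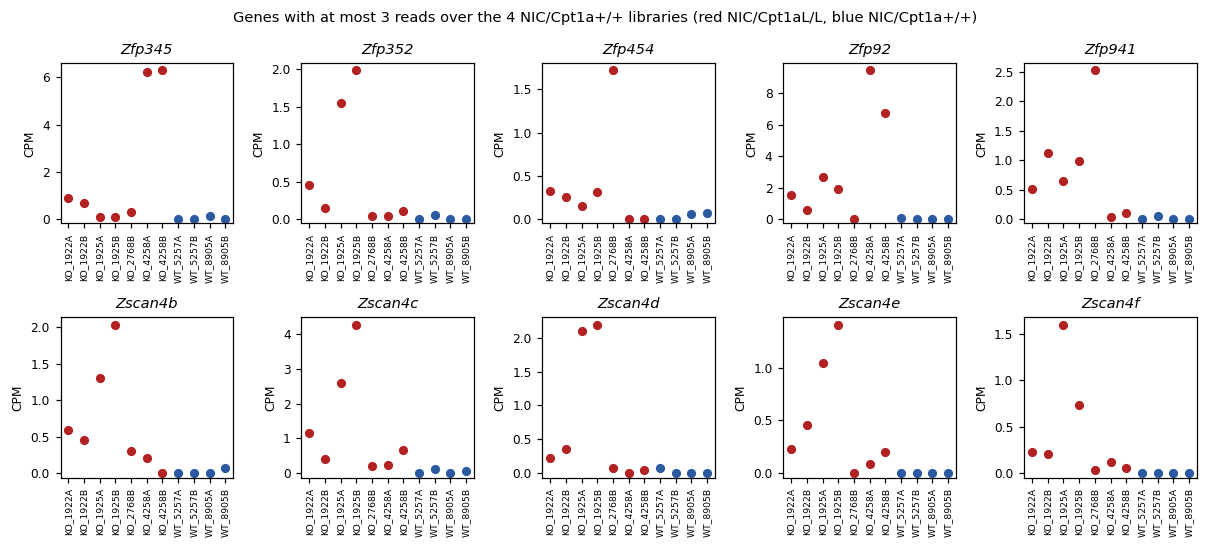
CPM of the 10 genes with at most 3 reads over the 4 NIC/Cpt1a+/+ libraries, each point 1 library, with a separate linear axis for each gene. KO_1925 is highest for the Zscan4 copies and Zfp352, KO_4258 for Zfp345 and Zfp92, and KO_2768 for Zfp454 and Zfp941.

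The other 10 genes higher by more than 1 log2 were Zfp365, Zfp385a, Zfp185, Zfp334, Zfp251, Zfp608, Zfp52, Zfp820, Zfp296 and Zfp53. Zfp365, a protein without a finger pattern, stood at 15.2, 20.3 and 12.4 CPM in KO_1922, KO_1925 and KO_2768 but at 0.299 in KO_4258, against 0.284 and 0.843. Its genotypes therefore overlapped through KO_4258 alone. Zfp185, whose protein associates with actin, stood at 36.5, 36.9, 6.51 and 61.9 CPM against 8.68 and 9.46, and overlapped through KO_2768. Zfp385a, a cofactor of p53, stood at 15.4, 21.2, 16.0 and 13.0 CPM against 1.23 and 5.68, a log2 difference of 2.25 (SE 0.70, edgeR adjusted p = 0.075), without overlap. In Zfp608, Zfp251, Zfp334 and Zfp820 the NIC/Cpt1a+/+ lines themselves were far apart, at 1.36 and 17.4, 0.915 and 10.9, 0.694 and 4.90, and 0.663 and 4.06 CPM. WT_5257 was the lower line in each, and the NIC/Cpt1aL/L lines ranged from 22.6 to 56.7, 14.1 to 27.5, 6.01 to 13.2 and 4.44 to 12.8 CPM. Zfp296, expressed in embryonic stem cells, was at 5.68, 3.60, 3.18 and 1.43 CPM against 1.52 and 0.937.

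Of the 12 genes higher by less than 1 log2, Zbtb7a and Zfp281 were the best expressed. Zbtb7a, a BTB repressor also known as LRF, had 23.7 ± 3.71 FPKM (SD, n = 4) against 18.7 ± 1.89 (SD, n = 2), and stood at 132, 124, 123 and 177 CPM against 123 and 106. The lowest NIC/Cpt1aL/L line exceeded the higher NIC/Cpt1a+/+ line by less than 1 CPM, and the log2 difference was 0.28 (SE 0.21, edgeR adjusted p = 0.241). Zfp281, a factor of embryonic stem cells, was at 49.8 to 58.5 CPM against 43.1 to 50.9, with overlap. Zfp451, a SUMO ligase, was at 54.6 to 64.1 CPM against 55.7 to 56.0 and its direction turned with DESeq2's size factors. The other 9 were Zbtb8os, Zfp280c, Zfp933, Zscan20, Zfp953, Zfp697, Zbtb12, Zfp934 and Zbtb8a, with log2 differences from 0.37 to 0.83.

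Grouped by name, the families showed no common direction. A name need not match a domain, as Zbtb8os counts here as a Zbtb gene and Zfp651 (Zbtb47) as a Zfp gene. The 9 Zbtb genes comprised 4 higher and 5 lower genes with a median log2 difference of −0.52, and the 67 Zfp genes 22 higher and 45 lower with a median of −0.64. The Zscan4 copies were higher in 5 of 5. With at most 3 reads over the NIC/Cpt1a+/+ libraries they could be listed only by being higher, and their sequence is partly shared with other genes. Of the other genes with Zscan or Zkscan names, Zscan20 was higher and Zscan21, Zscan29 and Zkscan8 lower. Genes with a KRAB pattern were 7 higher and 13 lower (median −0.62), and genes without one 25 higher and 40 lower (median −0.52). Only a fixed core of the domain was searched, so that a gene without the pattern may still carry a KRAB domain. None of these groups held a call in the test by line other than the 4 genes above, of which 3 have fingers and none has a KRAB pattern.

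Neighbouring genes often lay on the same side. With starts at most 1 Mb apart and at least 3 genes, 26 genes fell into 7 clusters, and in 6 of these all listed genes had 1 direction. The Zscan4 copies are 1 of these 6 clusters, and they could be listed only by being higher. GENCODE M21 annotates 8 genes of such names at 6286579 to 7183562 on chromosome 7, 7 in the chromosome 17 span and 6 in that of chromosome 6. In the chromosome 4 and 18 spans all annotated ones are listed. Those outside the table were not analysed. On chromosome 7 at 6286579 to 7183562, Zfp667, Zfp78, Zfp773 and Zfp418 were all lower (median log2 difference −1.56). Zfp282, Zfp212, Zfp746 and Zfp467 on chromosome 6 (47877204 to 48445825) were all lower (median −0.61), as were Zfp397, Zfp35 and Zfp191 in 66.1 kb of chromosome 18 (−0.72) and Zfp771, Zfp768 and Zfp764 on chromosome 7 (−0.66). On chromosome 17 (21491256 to 21845759), Zfp53, Zfp52 and Zfp820, each with a KRAB pattern, were all higher (median 1.66). Zfp52 stood at 14.6, 22.7, 11.4 and 24.6 CPM against 4.17 and 7.09, apart in all lines. The mixed cluster was on chromosome 4, where Zscan20, Zbtb8os and Zbtb8a were higher and Zfp362 lower. Zbtb8os and Zbtb8a overlap on opposite strands in 5.87% and 11.4% of their exon bases.

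**Figure D3:**
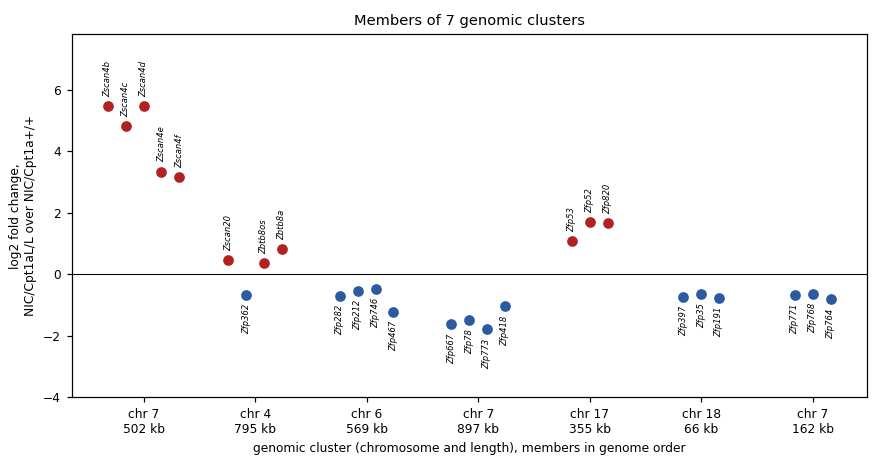
Log2 difference (NIC/Cpt1aL/L over NIC/Cpt1a+/+) of the 26 genes in 7 genomic clusters, in genome order within each; for the Zscan4 copies the value is the log2 ratio of pooled counts, or a lower bound for Zscan4e and Zscan4f. Red points are higher and blue points lower, and only the chromosome 4 cluster holds both.

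Of 24 pairs of adjacent zinc finger genes within 1 Mb, 21 (87.5%) had the same direction, and without the Zscan4 copies 17 of 20 (85%). Among the other coding genes tested, paired within their own list, 2131 of 3124 pairs within 1 Mb (68.2%) did. That list is denser, and other genes can lie between paired zinc finger genes, so that the shares are not of like pairs. No test was run on the difference between these shares. By chromosome, the median log2 difference of the zinc finger genes had the sign of that of the other coding genes tested on 13 of 17 chromosomes, the exceptions being chromosomes 3, 5, 8 and 13. On chromosome 12 all 4 zinc finger genes were lower (Zfp410, Zfp839, Zbtb1 and Zfp386), and of the other coding genes of the table there 15% were higher, on chromosome 17 all 4 were higher with 88.6% of the others, and on chromosome 4 they were higher in 5 of 6 with 85.6% of the others. On chromosome 8 the 3 zinc finger genes (Zfp612, Zfp276 and Zfp617) were lower while 78.7% of the others were higher, and on chromosome 5 both (Zscan21 and Zfp316) were lower while 58.2% of the others were higher. The medians were −1.02 against 0.28 on chromosome 3 and −0.0074 against 0.62 on chromosome 13. All 6 on chromosome 9 and all 5 on chromosome 6 were lower, where 41.2% and 47.8% of the others were higher. The part of chromosome copy number in these tumor lines was not tested.

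**Figure D4:**
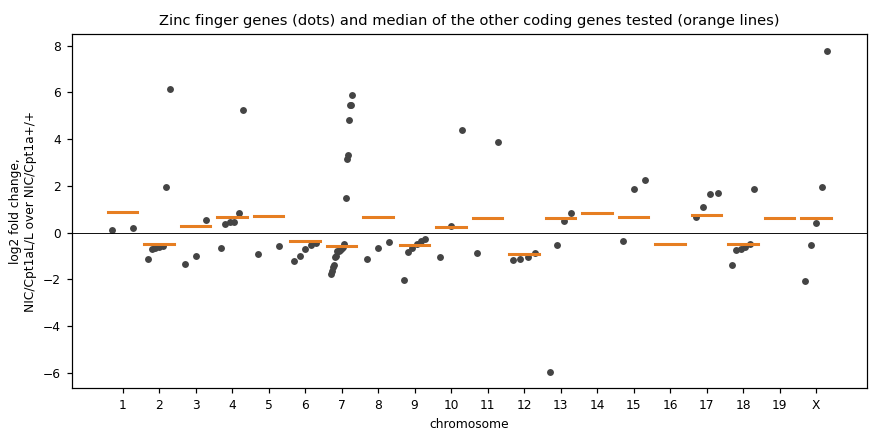
Log2 difference of each zinc finger gene (dots) by chromosome, with the median of the other coding genes tested as an orange line; genes with at most 3 reads in a group are drawn at their pooled ratio or bound. On chromosomes 12 and 17 the genes lie on the side of the line's sign, and on chromosome 8 on the other side.

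The spread among the NIC/Cpt1aL/L lines entered the authors' p-values, by which genes were listed, so that it too is a description. Over the 74 zinc finger genes with a mean of at least 1 CPM, the SD of log2 CPM over the 4 lines had a median of 0.25, against 0.39 over 3743 genes of the table with that level. An SD above 1 occurred in 5 of them (6.76%), namely Zfp92, Zfp365, Zfp345, Zfp185 and Zfp667, and in 22.0% of the table. Duplicate libraries of a line differed by a median of 0.09 log2 in these genes, less than the lines did. The evenest gene was Zfp282, at 34.6, 34.4, 34.3 and 34.4 CPM in the NIC/Cpt1aL/L lines against 60.2 and 51.7 in the NIC/Cpt1a+/+ lines. The NIC/Cpt1a+/+ lines differed by a median of 0.29 log2 in these 74 genes and by 0.48 in the 3743 genes. Of the 74 genes, 10 (13.5%) differed by more than 1 log2 between the NIC/Cpt1a+/+ lines, against 26.5% of the 3743 genes. All 10 were genes on the higher side, and among them Zfp345 rests on 2 reads in WT_8905 and 0 in WT_5257.

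Promoters were compared by their number of CG dinucleotides. RefSeq windows of 300 bases were matched for 66 of the 85 genes, with a median of 18 CG. The median was 20 over the 3055 matched genes of the table, these included, and 8 over all 27025 genes. Where a gene had several annotated starts, the window with the most CG was kept. The 17 matched genes higher by more than 1 log2, 4 of them Zscan4 copies, had a median of 8 CG. The 11 higher by up to 1 log2 had a median of 19, near the 20.5 of the 38 lower genes, which were taken at any difference. Of the 9 matched genes with at most 3 reads over the NIC/Cpt1a+/+ libraries, 7 (77.8%) had fewer than 10 CG. Of these, 4 are the near-identical Zscan4 windows, and without them, left out after the counts were seen, the share was 3 of 5 (60%). Among other coding genes of the table the share was 59.2% (141 of 238) for those with as few reads and 18.8% (504 of 2679) for the rest, so that few CG went with low reads in the NIC/Cpt1a+/+ lines across the table. For contrast to the window of Zfp352 above, that of Zfp651 at chr9:121759783-121760082 (GRCm38.p6, plus strand), the gene that fell with the smallest adjusted p, holds 46 CG, given in capitals.
Zfp651: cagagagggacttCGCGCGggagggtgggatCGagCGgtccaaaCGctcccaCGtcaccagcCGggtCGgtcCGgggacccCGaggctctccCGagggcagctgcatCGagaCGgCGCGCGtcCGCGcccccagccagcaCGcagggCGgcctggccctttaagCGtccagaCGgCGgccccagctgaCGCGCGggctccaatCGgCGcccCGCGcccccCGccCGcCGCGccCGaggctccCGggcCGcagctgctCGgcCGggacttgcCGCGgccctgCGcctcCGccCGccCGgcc

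**Figure D5:**
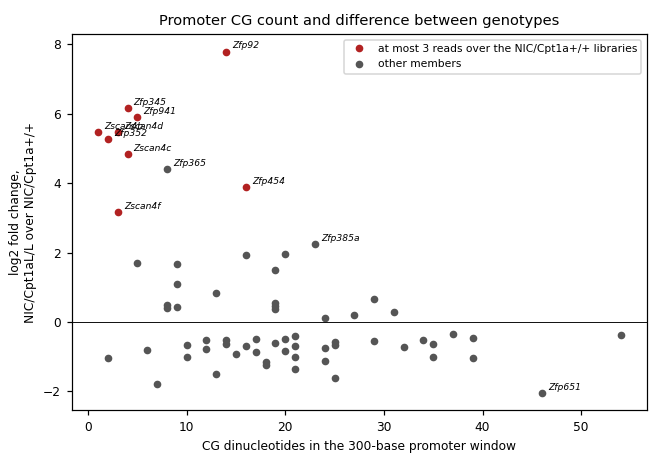
Number of CG dinucleotides in the 300-base promoter window against the log2 difference between genotypes, each point 1 of the 66 matched genes, with genes at 3 reads or fewer over the NIC/Cpt1a+/+ libraries in red and drawn at their pooled ratio or bound. Of the 9 red points, 7 lie under 10 CG and the other 2 are Zfp92 and Zfp454.

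Many zinc finger proteins, though not all of those named here, act through chromatin partners. A list of 38 partners was followed, and no link of the genes to these partners was tested. The table held 9 of them, 4 higher and 5 lower, with a median log2 difference of −0.47 against 0.49 over the table, and 1 rose and 1 fell by line. Dnmt3a, a de novo DNA methyltransferase, stood at 46.7, 61.3, 56.3 and 68.3 CPM against 169 and 142, and fell by 1.42 on the log2 scale (SE 0.20, edgeR adjusted p = 0.034). Cul3, the ubiquitin ligase scaffold that binds BTB proteins, stood at 166, 190, 165 and 193 CPM against 104 and 86.8, and rose by 0.90 (SE 0.17, edgeR adjusted p = 0.048). Neither gene overlapped between the genotypes. Both calls were lost with adjustment over 17561 tests (0.141 for Dnmt3a and 0.197 for Cul3 in edgeR) and without KO_1922, KO_1925 or WT_5257 (0.102 to 0.126 and 0.121 to 0.152). That of Cul3 was also lost without KO_2768 (0.0538) or WT_8905 (0.082) and with DESeq2's size factors (0.0557). The other 7, which did not pass, were Kdm1a, Bcor and Rbbp4 on the higher side and Rcor1, Trim33, Ehmt1 and Smarcad1 on the lower, with log2 differences from −1.07 to 0.68. Trim28 and Setdb1, through which KRAB proteins act, were not in the table and were not analysed here.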

How the data were processed

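RNA-Seq libraries of 6 tumor-derived cell lines were analysed, 4 NIC/Cpt1aL/L (7 libraries) and 2 NIC/Cpt1a+/+ (4 libraries); 1 library of KO_2768 was used. The line was the replicate (the study gives n as lines in duplicate), and p-values measure the spread between these lines. The authors aligned reads to mm10 with STAR and counted them per gene with HTSeq, and the submitters' processing notes also name Trimmomatic, edgeR and limma and the builds GRCm38 and mm10. The strand setting is not given in the sources used here. The deposited table holds read counts, a signal (counts divided by 1 size factor per library), FPKM, and the fold change, p-value and adjusted p-value of each gene from the authors' own DESeq2 test. Their fold change was not used. The deposited p-values were used only to find that every gene in the table had passed (largest adjusted p-value 0.049958) and that 17561 tests were counted.

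Library totals were recovered from counts, lengths and FPKM; the table carries 33.3% to 34.6% of them. Counts were summed by line, scaled by TMM (factors 0.969 to 1.05), filtered with filterByExpr and tested in R 4.3.3 with edgeR 4.0.16 (quasi-likelihood, prior of 1.91 degrees of freedom) over 4268 genes, with Benjamini-Hochberg adjustment and a threshold of 0.05; DESeq2 1.42.0 was an alternative. Where a group held at most 3 reads, the ratio of pooled CPM with an exact 95% conditional binomial interval is given, and against 0 reads a bound from 3 counts over the group. Sequence was taken from GENCODE M21 and RefSeq promoters (GRCm38.p6), the latter matched by symbol. Functions were tested on simulated counts.

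The genes and the lists were chosen with earlier results of these data known. Genes were named by rule: the 8 higher and 8 lower with the largest fitted log2 difference, the 6 with the highest FPKM, the best expressed of each family and pattern class, the 6 least even over NIC/Cpt1aL/L lines, members of the 3 largest clusters, genes past the threshold and listed chromatin partners (35 zinc finger genes). Further names were added after their values were seen. Alternatives were each library as a sample, a replicate block, library B alone, DESeq2, 3 other scalings, no filter, 17561 tests, other cluster gaps and each line left out.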

Additional observations from a re-analysis of the deposited data

Results flagged for a closer look

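In 6 of the 35 named zinc finger genes, 1 of the 4 NIC/Cpt1aL/L lines lay far from the others by Dixon's gap over range. Chance flags about 1 in 20 groups, but some of these genes, Zfp345 among them, were named for being uneven over the same lines, so that the 6 cannot be read against that rate. Zscan4d (0.876) and Zscan4f (0.845) were at 2.19 and 1.20 CPM in KO_1925 against at most 0.291 and 0.219 in the other NIC/Cpt1aL/L lines, and Zfp352 (0.843) was at 1.80 CPM in KO_1925 against at most 0.316. Zfp345 (0.892) was at 6.35 CPM in KO_4258 against 0.104 to 0.777, and Zbtb7a (0.833) at 177 CPM in KO_4258 against 123 to 132. Zfp366 (1) was at 0.0486 CPM in KO_1922, which is 2 reads, and at 0 in the other 3 lines, which fixes its value at 1.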

How the results depend on the processing

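The count of zinc finger genes past the threshold depended on the processing, while the directions of the named ones did not: over their alternatives, 392 values kept direction and side of the threshold, 72 passed it, 26 lost it and 0 changed sign. Zfp451, not among the named, changed sign with DESeq2's size factors, which shift the median log2 difference of all genes by −0.12 (authors' size factors, chosen after seeing the data, 0.10). Against 4 lower and 0 higher zinc finger genes and 148 lower and 71 higher genes of the table, each library as a separate sample gave 52 and 19 (1680 and 1873 of the whole table). DESeq2 on line sums gave 48 and 11 (1446 and 974). Library B alone gave 7 lower, DESeq2's size factors 7 (297), no filter 7 (252), totals without TMM 1 (93), the authors' size factors 1 (82), and 17561 tests 0 (0 lower and 0 higher in the table). Leaving out 1 line gave 0 to 7 lower and 0 to 2 higher zinc finger genes, and 0 to 347 and 0 to 294 in the table; the highest counts came without KO_4258, and 0 without KO_1922, KO_1925 or WT_5257. The fitted median of the Zkscan and Zscan genes was 2.53, with −0.081 to 4.22 over lines left out; it was negative without KO_1922 (−0.081) and without KO_1925 (−0.036), where Zscan4 copies left the fit through the filter on low counts. By library, 4 chromatin partners were higher and 5 lower, against 1 and 1. Deviations of same-numbered libraries correlated at −0.050 to 0.067 between lines, so that the numbers do not pair the libraries; with the replicate number as a block, 52 zinc finger genes were lower and 15 higher, and 1680 and 1706 of all genes. Genes below both NIC/Cpt1a+/+ lines numbered 51 to 53, while those above, 20 in the report, numbered 14 with library B alone, 16 with DESeq2's size factors and 20 to 27 over lines left out (27 without KO_2768). Clusters with 1 direction numbered 5 to 7, and the median spread over lines was 0.185 to 0.272. Genes of a few reads are limited by depth, and 2 NIC/Cpt1a+/+ lines by number.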
